A study of Mus musculus with 16 samples.

Results

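The 10 skin libraries of space-flown mice were compared by mission arm, 5 libraries of the live animal return (LAR) arm against 5 of the International Space Station (ISS) arm, out of 16 libraries in all. Members were taken by library name, and the arm of each name came from the study's own sample sheet. The study asked how exposure to the space environment (ESE) acts on mouse skin, and it divided flown mice into a responder cohort with low 5-methylcytosine (5mC) and a non-responder cohort with high 5mC. The other 6 libraries were ground controls, 3 from each arm. Every mouse was a female BALB/cAnNTac mouse of 10 to 16 weeks, and total RNA of hind limb skin was sequenced as 1 library per mouse after capture of exons. ISS mice spent 22 to 23 days in space and were killed on orbit, whereas LAR mice spent 40 days in space, came back alive and were killed after 2 days of recovery on the ground. Both groups compared were therefore flown. Each arm held 3 high 5mC mice (replicates 1 to 3) and 2 low 5mC mice (replicates 4 and 5). Days in space, return with recovery, and the place of killing differed together between the arms, so that their shares in any difference cannot be told apart. Age and date at killing are not given by arm in the sources used here and may have differed with them.

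Total counts were 4159342 to 14632084 in the ISS libraries and 11926454 to 21781179 in the LAR libraries. RNA was degraded in both arms, with an RNA integrity number of 1.2 to 1.9 in ISS and 1.2 to 2.1 in LAR. The share of fragments over 200 nucleotides (DV200) was 48.1 to 59.0% in ISS and 50.4 to 79.0% in LAR. None of 7 measures of RNA and library quality passed an exact two-sided permutation test between the arms over the 10 libraries (the smallest p was 0.1825, for total counts, with an adjusted p of 0.472). ISS replicate 1 had the fewest counts, and 57.3% of its reads mapped to ribosomal RNA against 13.3 to 28.9% in the other 9. All 6 skin markers (Krt5, Krt14, Krt1 and Krt10 of the epidermis, Col1a1 and Col3a1 of the dermis) had counts in every library. Transcripts typical of fat, muscle and liver differed in level between libraries. LAR replicate 1 was rich in genes of fat, and ISS replicate 4 in genes of liver and, at lower levels, of intestine. The main values that rest on these libraries are also given without them.

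Skin follows the day. Its cells run a molecular clock in which BMAL1 (gene Arntl) and CLOCK switch on the period and cryptochrome genes, whose proteins then hold BMAL1 and CLOCK back, while the ROR and REV-ERB nuclear receptors raise and lower Arntl. Skin also cycles over weeks, when hair follicles grow and rest and the fat layer of the dermis thickens and thins with them. Muscle, fat and vessels lie close below mouse skin, so a biopsy can hold more or less of each.

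No gene passed an adjusted p of 0.05 by the quasi-likelihood F test of edgeR among the 13484 genes tested, in either direction (0% called). At an unadjusted p under 0.05 there were 678 genes, or 5.03% of those tested, 482 higher in LAR (3.57%) and 196 lower (1.45%). Without LAR replicate 1 there were 360, 199 higher and 161 lower. With no effect in any gene, 674 would lie there. By other tools the likelihood ratio test of edgeR called 1 gene, limma-voom with quality weights 0, and DESeq2 42, of which 34 were higher and 8 lower in LAR. By level scaled to library size, all 5 LAR libraries lay above all 5 ISS libraries in 47 genes (0.349%), and in 22 genes (0.163%) all lay below. Some genes would lie apart in this way with no effect in any gene, and their number by chance was not computed. The biological coefficient of variation was 0.499, which is the standard deviation between mice of an arm, as a share of a gene's level, beyond counting error. The genes named below are those of smallest p and the members of gene lists, and none of them passed the quasi-likelihood F test of edgeR over all genes. DESeq2 called 9 of the 10 genes of smallest p, with an adjusted p of 7.8e-07 for Gadl1 and 0.0047 to 0.0446 for the other 8, and did not call Abca1. Of the genes described from lists DESeq2 called Cd36, Lpl, Aqp7, Thrsp, Fasn, Acacb, Kdr, Cdh5, Rgs5, Lcn2, Glul and Lox, all higher in LAR. It also called Nkd1 of the Wnt pathway list, which was lower in LAR. Levels are counts scaled to a common library size (CPM) with TMM, a factor for each library, and always run from replicate 1 to replicate 5. Fold changes are log2 values of LAR minus ISS with their standard error (SE). In bulk tissue fewer cells of a type and less RNA per cell cannot be told apart.

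The gene of smallest p was Gadl1 (chr9:115909455-116076176, mm10), which encodes an enzyme that makes β-alanine from aspartate. Its level was 51.8, 15.1, 34.8, 21.1 and 42.3 CPM in the ISS libraries and 2.4, 5.81, 7.67, 5.64 and 3.06 CPM in the LAR libraries. The lowest ISS library thus lay above the highest LAR library. The log2 fold change was -2.75 ± 0.43 (SE), with an unadjusted p = 5.1e-05 and an adjusted p = 0.688 by the quasi-likelihood F test of edgeR, while the likelihood ratio test gave an adjusted p of 2.4e-05. The difference was -2.67 among high 5mC mice alone and -2.90 among low 5mC mice alone, and it ran from -2.98 to -2.54 when each library was left out in turn. Ground mice had 46.8, 42.2 and 13.8 CPM in the ISS arm and 24, 12.5 and 13.5 CPM in the LAR arm, with overlap between the arms. The ground difference was -1.06 ± 0.54 (unadjusted p = 0.0687), and the difference between flight and ground was -1.69 on the log2 scale (interaction, unadjusted p = 0.0257, adjusted p = 0.999).

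The other lower genes of smallest p were Adamts17, Myrfl, 2010016I18Rik and Rspo3, and in each of them every LAR library lay below every ISS library. Adamts17, a secreted metalloprotease of the extracellular matrix, had 10.5, 10.8, 17, 9.68 and 11.7 CPM in ISS and 4.65, 4.61, 5.51, 3.63 and 6.65 CPM in LAR. Its log2 fold change was -1.25 ± 0.25 (SE). Adamts17 had a ground fold change of -1.51 ± 0.36 (unadjusted p = 0.000668), so that mice that never flew showed a difference of the same sign. Rspo3, a secreted protein that strengthens Wnt signals, had 7.69, 10.8, 14.1, 10.9 and 17.3 CPM in ISS and 4.02, 6.82, 4.63, 5.32 and 6.32 CPM in LAR. Its log2 fold change was -1.17 ± 0.26 in flight and 0.02 ± 0.50 on the ground. Myrfl, a gene related to the transcription factor of myelin, was low throughout, at 1.25 to 4.12 CPM in ISS and 0.392 to 1.048 CPM in LAR. The transcript 2010016I18Rik ran from 5.82 to 13 CPM in ISS and from 2.24 to 4.02 CPM in LAR. It overlaps Dennd2d on the other strand, and since the strand setting of the counting is not stated, it is not known whether their counts share reads. The log2 fold changes of Myrfl and 2010016I18Rik were -1.90 and -1.34, and on the ground -0.00079 and -0.10. Adjusted p was 0.949 for all 4 by the quasi-likelihood F test of edgeR.

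The higher genes of smallest p were Vcl, Cx3cl1, Fam101b, Abca1 and Efemp1, and in each of them every LAR library lay above every ISS library. Vcl encodes vinculin, which ties integrin adhesions and cell junctions to actin. It had 90.2, 83, 91.1, 89 and 78.4 CPM in ISS and 154, 129, 130.5, 112 and 132 CPM in LAR, a small difference over a narrow spread (86.4 ± 5.45 and 132 ± 15.1, mean and SD). The log2 fold change of Vcl was 0.61 ± 0.14 (SE), and 0.0019 ± 0.18 on the ground. Cx3cl1, the chemokine fractalkine, had 5.26, 4.14, 3.1, 3.46 and 2.58 CPM in ISS and 10.3, 6.45, 10.4, 8.78 and 6.22 CPM in LAR. Abca1, which exports cholesterol from cells, had 110.0, 88.6, 124, 125 and 127 CPM in ISS and 448, 167, 202, 224 and 204 CPM in LAR. The highest Abca1 level stood in the fat-rich LAR replicate 1, and the fold change was 1.12 with this library and 0.80 without it. Fam101b, which encodes the filamin-binding protein refilin B, had 3.64, 3.57, 3.1, 2.16 and 1.83 CPM in ISS and 14.9, 4.89, 5.99, 8.14 and 7.54 CPM in LAR. Its log2 fold change was 1.55 ± 0.36 in flight (1.23 without LAR replicate 1) but -1.14 ± 0.47 on the ground, so that the signs were opposite (interaction 2.69, unadjusted p = 0.00039, adjusted p = 0.999). Efemp1, a fibulin of the matrix, had 2.61 to 8.16 CPM in ISS and 11.8 to 16.1 CPM in LAR, with a fold change of 1.19 in flight and 0.65 on the ground. Adjusted p was 0.949 for all 5 genes by the quasi-likelihood F test of edgeR.

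**Figure D1:**
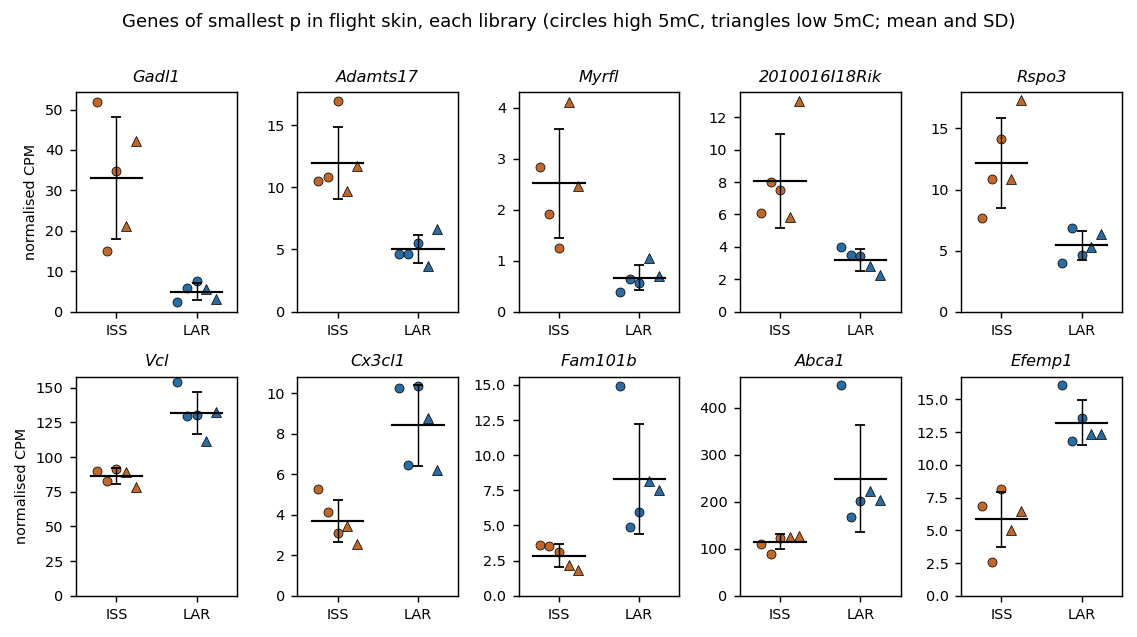
Normalised CPM (linear axis) of the 5 lower (top) and 5 higher (bottom) genes of smallest p in each flight library. Each point is 1 mouse, with circles for high 5mC and triangles for low 5mC mice, and lines give the mean and SD of 5 libraries; in all 10 panels the arms do not overlap, and none passed an adjusted p of 0.05 by the quasi-likelihood F test of edgeR.

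The hour at which mice were killed, which clock genes follow, is not given in the sources used here. Of the 20 clock genes tested, 16 had a higher fitted level in LAR, against 50.5% of all genes, and 4 were at an unadjusted p under 0.05, all of them higher, with Per2, Bhlhe41 and Per3 among them. Arntl, Npas2, Per1 and Nfil3 were the 4 with a lower fitted level. Per2, whose protein holds back BMAL1 and CLOCK, had 3.24, 27.2, 30.5, 11.1 and 12.8 CPM in ISS and 54.2, 80.2, 69.1, 40.05 and 43 CPM in LAR. The lowest LAR library thus lay above the highest ISS library. The log2 fold change of Per2 was 1.73 ± 0.48 (SE, unadjusted p = 0.00419, adjusted p = 0.949 by the quasi-likelihood F test of edgeR), and it was 1.70 in high 5mC and 1.77 in low 5mC mice taken alone. Per3, a further period gene, had 23.1, 27.7, 55.2, 23.8 and 94.9 CPM in ISS and 109, 87.1, 124, 141 and 49.97 CPM in LAR, and its fold change was 1.18 ± 0.44. ISS replicate 5 and LAR replicate 5 overlapped the other arm. Per1, by contrast, had 87.8, 59, 167, 141 and 323 CPM in ISS and 126, 109.6, 95.7, 86.9 and 78.7 CPM in LAR, with a fold change of -0.65 ± 0.39, or -0.21 without ISS replicate 5. The LAR libraries lay within the range of the ISS libraries.

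Of the activators, Arntl had 55.4, 28, 21.1, 32 and 42.1 CPM in ISS and 17, 24.2, 37.6, 24.2 and 26.8 CPM in LAR, and the arms overlapped (-0.45 ± 0.29). Clock, Npas2, Rora and Arntl2 had fold changes of 0.08, -0.35, 0.06 and 0.42, each with overlap. Among the other repressors, Bhlhe41 (a repressor that competes at E-boxes) had 3.64, 7.65, 4.41, 6.01 and 2.15 CPM in ISS and 46.8, 5.62, 16.1, 4.43 and 15.9 CPM in LAR. Its fold change was 1.88, and 1.13 without LAR replicate 1, and LAR replicates 2 and 4 lay within the ISS range. Cry1 and Cry2, the cryptochromes, had fold changes of 0.50 and 0.52. The REV-ERB genes Nr1d1 and Nr1d2 had 0.47 and 0.46, Bhlhe40 had 0.37 and Ciart had 0.23, and all of these overlapped between the arms.

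Dbp, Tef and Hlf are outputs of the clock that act on other genes through D-boxes. Dbp had 6.88, 3.31, 28.6, 3.2 and 60.3 CPM in ISS and 86, 37.8, 34.2, 94 and 9.28 CPM in LAR. Low and high libraries stood in both arms, and the fold change was 1.34 ± 0.87. With 1 library left out it ran from 1.02 without LAR replicate 4 to 2.28 without ISS replicate 5. Without the fat-rich and liver-rich libraries it was 0.80, and without ISS replicate 1 as well it was 0.52. Tef had 18.2, 10.8, 38, 10.3 and 66 CPM in ISS and 62, 72.3, 62.8, 109.7 and 19.2 CPM in LAR (1.18 ± 0.58). Hlf had 6.41 to 30.8 CPM in ISS and 12.5 to 65.4 CPM in LAR (1.18 ± 0.54). Nfil3, which represses the same D-boxes, had 9.24 to 34.1 CPM in ISS and 5.78 to 27.5 CPM in LAR (-0.65 ± 0.51). In Dbp, Tef and Hlf the same 2 mice stood against their arms: ISS replicate 5 was the highest of its arm and LAR replicate 5 the lowest of its arm. Dbp overlaps Sphk2 on the other strand, and Cry2, Bhlhe40 and Ciart each overlap a gene on the other strand too. As the strand setting of the counting is not stated, it is not known whether the counts of these pairs share reads.

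**Figure D2:**
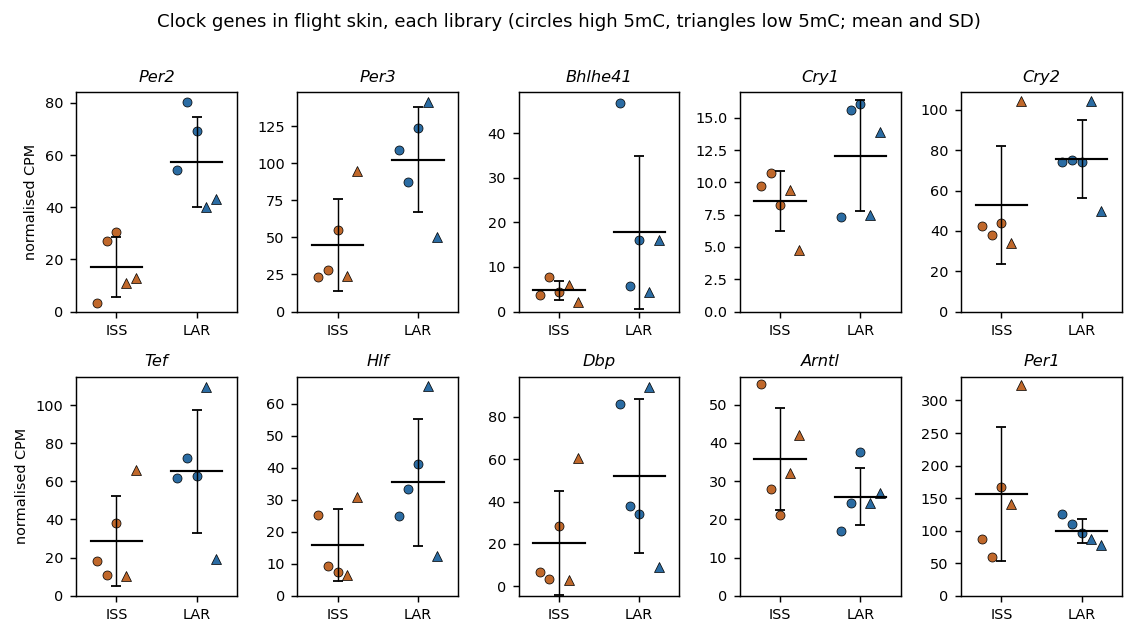
Normalised CPM (linear axis) of 10 clock genes in each flight library, with circles for high 5mC and triangles for low 5mC mice and lines for mean and SD of 5 libraries. Per2 is the 1 gene of these in which the arms do not overlap; in Per3 and Dbp the last triangle of each arm (replicate 5) crosses into the other arm.

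Ground mice of the same 2 arms give the background for this contrast, since they never flew. Flight and ground contrasts share no sample, although the ground fit took its spread from all 16 libraries. No gene passed an adjusted p of 0.05 between ground LAR and ground ISS by the quasi-likelihood F test of edgeR (0% called of 14381), and 1304 (9.07%) were at an unadjusted p under 0.05, 921 higher (6.4%) and 383 lower (2.66%). Without ground LAR replicate 3, which was rich in muscle transcripts, there were 560, 236 higher and 324 lower. A higher fitted level in ground LAR was found for 56.3% of all genes and a lower one for 43.7%. The likelihood ratio test called 15. Per2 had 11.4, 12.7 and 8.83 CPM in ground ISS and 38.2, 68.2 and 125 CPM in ground LAR. Here too every LAR mouse lay above every ISS mouse. The ground fold change of Per2 was 2.81 ± 0.62 (unadjusted p = 0.000391), larger in size than in flight but not shown to differ from it (interaction -1.08, unadjusted p = 0.163). Per3 and Bhlhe41 had ground fold changes of 1.48 and 1.77, beside 1.18 and 1.88 in flight. Per1 and Nfil3 went the other way on the ground (0.43 and 0.17), and so did Nr1d1 (-0.26). Without ground LAR replicate 3 the ground fold changes were 2.27 for Per2 and 1.35 for Per3, of the same sign as in flight. Bhlhe41 had 4.45, 3.31 and 5.79 CPM in ground ISS and 4.2, 3.3 and 37.4 CPM in ground LAR, so that 1 library carried its ground difference, which was -0.26 without it. Nfil3 had -0.96 on the ground without that library, the sign it had in flight. Bhlhe40 had 0.45 on the ground and -0.53 without that library, against 0.37 in flight.

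**Figure D3:**
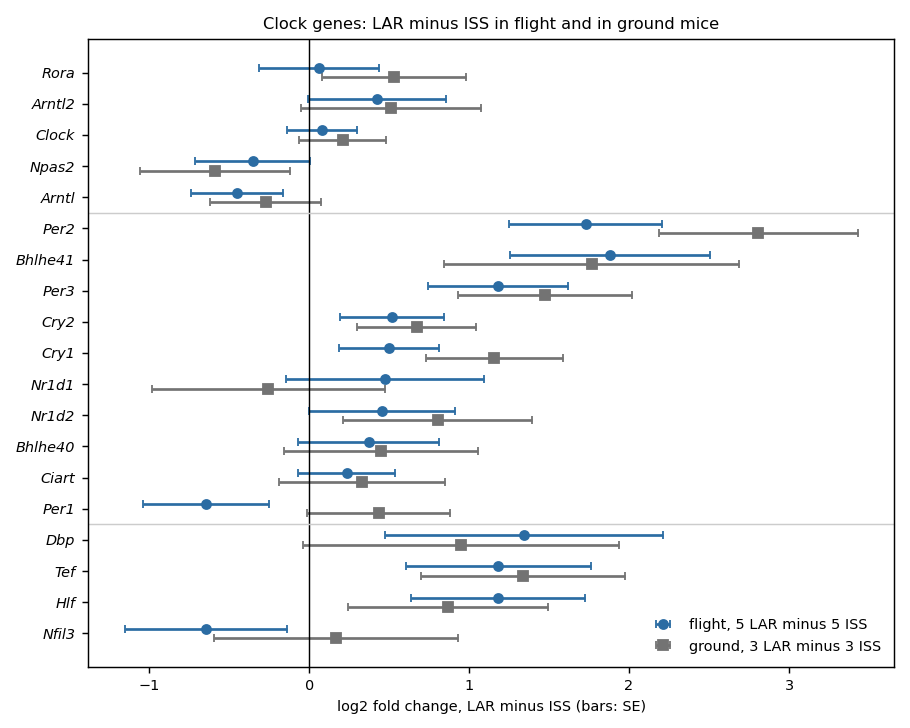
Log2 fold change of LAR minus ISS (x axis, bars give SE) for 19 clock genes (y axis), in flight mice (blue circles, 5 and 5 libraries) and in ground mice (grey squares, 3 and 3 libraries); lines separate activators, repressors and D-box factors. Per2, Bhlhe41 and Per3 lie to the right of 0 in both, and Per1, Nfil3 and Nr1d1 have opposite signs. Without ground LAR replicate 3 the ground values of Bhlhe40, Bhlhe41 and Nfil3 change sign.

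Promoters of 3 of these genes are shown because they hold the elements through which the clock acts, from genes with a higher fitted level in LAR. RefSeq (GRCm38.p6) gave 250 bases before and 50 after the start for 17 of the 20 clock genes. The 3 motifs searched on both strands were the E-box CACGTG bound by BMAL1 and CLOCK, the D-box spelled TTANNTAA and the ROR element core AGGTCA, none of which overlapped another in the promoters shown. Capitals mark E-boxes and D-boxes. The Per3 promoter (chr4:151044616-151044915, minus strand) held 2 D-boxes, starting 205 and 158 bases before the start of the gene, the Bhlhe41 promoter (chr6:145865371-145865670, minus strand) an E-box 153 bases before it, and the upstream Tef promoter (chr15:81802423-81802722, plus strand) a D-box and an E-box 174 and 127 bases before it.
Per3: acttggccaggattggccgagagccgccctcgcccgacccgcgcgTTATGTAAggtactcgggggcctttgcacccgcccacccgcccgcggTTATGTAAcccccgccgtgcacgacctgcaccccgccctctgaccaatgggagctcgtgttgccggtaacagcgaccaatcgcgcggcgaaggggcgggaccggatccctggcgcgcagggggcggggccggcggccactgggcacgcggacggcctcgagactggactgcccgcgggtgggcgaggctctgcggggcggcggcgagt
Bhlhe41: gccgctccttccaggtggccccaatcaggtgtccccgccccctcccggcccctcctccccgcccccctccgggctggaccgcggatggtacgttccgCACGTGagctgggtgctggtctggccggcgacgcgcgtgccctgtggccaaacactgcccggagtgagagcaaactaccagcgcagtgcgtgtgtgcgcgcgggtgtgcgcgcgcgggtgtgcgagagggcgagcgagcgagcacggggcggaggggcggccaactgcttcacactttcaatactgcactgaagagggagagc
Tef: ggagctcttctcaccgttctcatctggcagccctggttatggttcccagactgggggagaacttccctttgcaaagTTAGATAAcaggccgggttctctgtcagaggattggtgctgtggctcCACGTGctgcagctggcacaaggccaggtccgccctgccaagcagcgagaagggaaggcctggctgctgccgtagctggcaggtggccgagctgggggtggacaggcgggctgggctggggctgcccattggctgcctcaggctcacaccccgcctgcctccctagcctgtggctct
The 17 clock genes had 22 promoters, of which 6 held an E-box, 2 a D-box and 5 a ROR element core. Among all 32851 promoters of the same length these motifs were in 7.15, 6.0 and 16.3%. The E-box genes were Bhlhe41, Ciart, Cry1, Per1 and Tef, of which Per1 had a lower fitted level in LAR and the other 4 a higher one. A match is a run of letters and was not tested as a binding site.

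The adipocyte genes had the largest median of all lists tested with the 10 libraries, and LAR replicate 1 carried much of it. Of 20 adipocyte genes tested, 19 had a higher fitted level in LAR and 15 were at an unadjusted p under 0.05, all higher, with a median log2 fold change of 3.06 against 0.0042 over all genes. Without LAR replicate 1 the median was 1.13, with 7 genes higher and 1 lower at that p. The summed level of the list was 818, 418, 815, 1161 and 1475 CPM in ISS and 15850, 1092, 2508, 1239 and 969 CPM in LAR. LAR replicate 1 was thus the highest of all 10, LAR replicate 3 the next, and the other 3 LAR libraries lay within the ISS range. Cd36, a fatty acid transporter, had 6.07, 1.21, 7.32, 10.1 and 11 CPM in ISS and 764, 10.1, 95.5, 25.5 and 32.5 CPM in LAR. Its fold change was 4.70 ± 1.22 and 2.52 without LAR replicate 1. Lpl, the lipase that frees fatty acids from lipoproteins, had 14.6, 10.1, 28.4, 17.8 and 39.6 CPM in ISS and 1411, 34.4, 187, 38.4 and 79.4 CPM in LAR. In both genes LAR replicates 3 and 5 were above every ISS library as well. Aqp7 (a glycerol channel) and Cfd (adipsin) had fold changes of 4.63 and 3.92, and 2.70 and 1.80 without LAR replicate 1. Adipocyte genes also had a higher fitted level in the LAR arm on the ground, 19 of 20 with a median of 1.64, or 1.19 without ground LAR replicate 3.

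Fatty acid synthesis followed the same libraries. Of 19 genes, 18 had a higher fitted level in LAR, 10 of them at an unadjusted p under 0.05, with a median of 1.72 that was 0.64 without LAR replicate 1. Fasn, which builds palmitate, had 638, 945, 598, 499 and 780.3 CPM in ISS and 26128, 1336, 3841, 673 and 919.6 CPM in LAR. LAR replicates 1, 2 and 3 were above every ISS library and replicates 4 and 5 were not. Its fold change was 3.25 ± 0.99, 1.29 without LAR replicate 1, and 0.06 on the ground, where all 6 mice had 623 to 671 CPM. Thrsp, which promotes lipogenesis, had 3.24, 0.637, 6.07, 10.3 and 16.1 CPM in ISS and 1633, 51.3, 304, 4.92 and 8.92 CPM in LAR, so that the high levels stood in the 3 high 5mC mice. Among low 5mC mice alone the fold change of Thrsp was -0.95. Acss2 and Acacb had fold changes of 2.38 and 3.11, and 1.09 and 1.62 without LAR replicate 1. Of the antioxidant genes under NRF2, 19 of 24 had a higher fitted level in LAR (6 at an unadjusted p under 0.05, median 0.34), and the 4 of smallest p included Tkt, Taldo1 and Pgd, enzymes of the pentose phosphate pathway that supplies NADPH. Tkt had 199, 243, 143, 158 and 66.2 CPM in ISS and 3328, 302, 539, 146 and 267 CPM in LAR. Its fold change was 2.50, and 0.96 without LAR replicate 1. Gsta4, a glutathione transferase, was the fourth, at 1.56 and 0.58. Of the NRF2 list 1 gene stayed at an unadjusted p under 0.05 without LAR replicate 1.

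Vessel genes had a higher fitted level in LAR in the same libraries. Of 17 endothelial genes, 16 had it, 12 at an unadjusted p under 0.05, with a median of 2.12 and of 1.22 without LAR replicate 1, when 4 remained at that p. The summed level was 21.9, 24.5, 67.2, 86 and 58.9 CPM in ISS and 935, 27.6, 272, 80.6 and 86.6 CPM in LAR. LAR replicates 1 and 3, the libraries highest in fat genes, were also the highest in vessel genes, and LAR replicate 2 lay among the lowest. Kdr, the main VEGF receptor of endothelium, had 0, 0.574, 3.1, 5.36 and 1.29 CPM in ISS and 179, 1.47, 41.1, 4.35 and 10.3 CPM in LAR. Flt1, the VEGF receptor 1, had 1.62, 1.08, 5.66, 3.4 and 4.62 CPM in ISS and 68.6, 5.44, 24.8, 4.19 and 8.26 CPM in LAR. Fold changes were 4.38 ± 1.30 for Kdr and 2.73 ± 0.82 for Flt1, and 2.67 and 1.67 without LAR replicate 1. Cdh5 (VE-cadherin) and Robo4 had 3.69 and 3.08, and 2.19 and 1.62 without LAR replicate 1. Of 10 VEGF ligands and receptors, Kdr and Flt1 included, 8 had a higher fitted level in LAR, and the median of 1.04 was 0.24 without LAR replicate 1. The ligand Vegfb had 3.64, 4.84, 2.8, 2.75 and 3.01 CPM in ISS and 12.8, 4.52, 4.55, 5.4 and 3.69 CPM in LAR, a fold change of 0.87 with all libraries and of 0.42 without LAR replicate 1, and Vegfc had 1.13 and 0.53. All 10 mural cell genes had a higher fitted level in LAR (5 at an unadjusted p under 0.05, median 1.24, and 0.59 without LAR replicate 1, when Rgs5 was not tested and none of the others was at that p). Of these Rgs5, a marker of pericytes, had 0.0637 to 0.809 CPM in ISS and 0.560 to 29.4 CPM in LAR, Acta2 had a fold change of 1.66, Myh11 of 2.33 and Pdgfrb of 1.93, which without LAR replicate 1 were 0.86, 1.22 and 0.73. Ground mice showed a median of 2.30 for endothelium between the arms, with 17 of 17 genes higher in LAR, and of 0.73 without ground LAR replicate 3. The part of fat and vessel content of the biopsy in these differences was not tested.

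**Figure D4:**
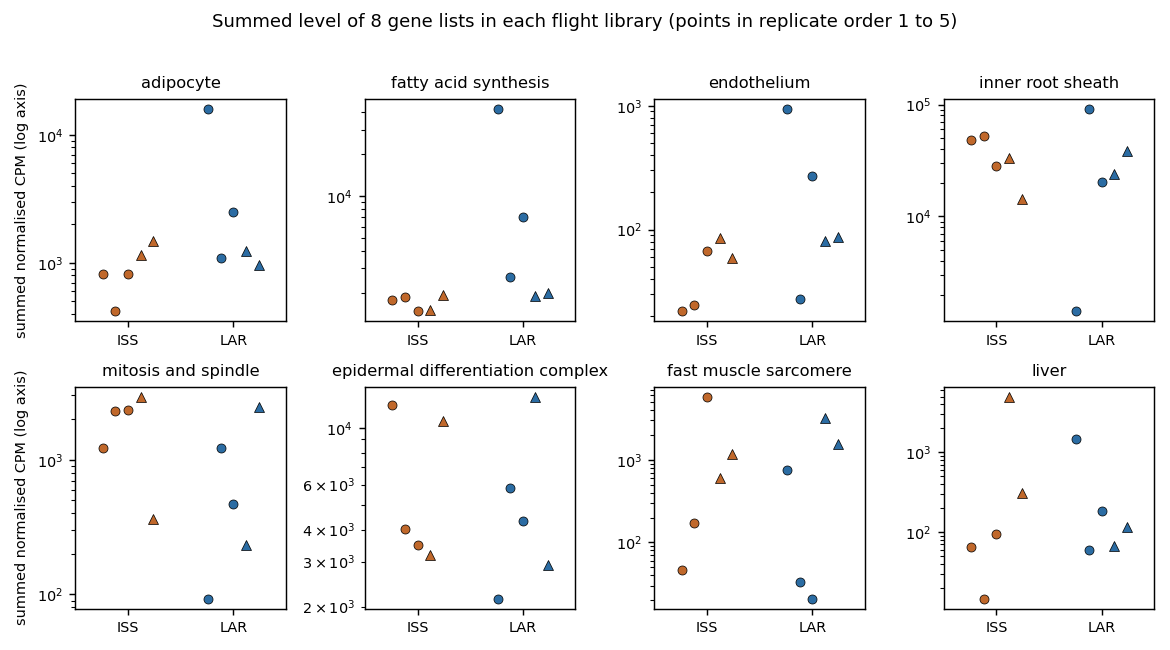
Summed normalised CPM (log axis) of 8 gene lists in each flight library, with points in replicate order 1 to 5 within an arm, circles for high 5mC and triangles for low 5mC mice. LAR replicate 1, the first LAR point, is the highest of all 10 for fat and vessel genes and the lowest for mitosis and the inner root sheath; ISS replicate 4 is the highest for liver genes.

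Of 31 genes of oxidative phosphorylation, 30 had a higher fitted level in LAR, 8 at an unadjusted p under 0.05, with a median of 0.55. Without LAR replicate 1 the median was 0.24 with 2 at that p, but without LAR replicate 1, ISS replicate 4 and ISS replicate 1 it was 0.52 with 11. Ndufb3, a subunit of complex I, had 5.26, 3.57, 3.69, 3.33 and 4.51 CPM in ISS and 15.5, 6.36, 8.31, 9.83 and 5.89 CPM in LAR. Every LAR library lay above every ISS library, and the fold change of 1.19 ± 0.31 was 0.92 without LAR replicate 1. Cox5b of complex IV had 15.4, 13.4, 9.58, 11.7 and 8.49 CPM in ISS and 19.1, 15, 15.9, 20.1 and 15 CPM in LAR, with ISS replicate 1 inside the LAR range. Cox4i1 and Sdhc had fold changes of 0.83 and 0.77, and 0.56 and 0.58 without LAR replicate 1. On the ground all 31 genes had a higher fitted level in LAR, with a median of 1.33, beside a ground median of 5.03 for fast muscle genes. Ground LAR replicate 3 had by far the most muscle transcripts of the 6 ground libraries, and without it the ground median of oxidative phosphorylation was -0.28, with 6 of 31 genes higher in LAR, and that of fast muscle 1.92.

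All 24 mitosis genes had a lower fitted level in LAR, against 49.5% of all genes, with a median of -0.98 and 2 genes at an unadjusted p under 0.05. The median ran from -1.61 without LAR replicate 5 to -0.69 without LAR replicate 1, and it was -0.45 without the fat-rich and liver-rich libraries together. The summed level was 1231, 2290, 2332, 2939 and 365 CPM in ISS and 93, 1231, 473, 233 and 2470 CPM in LAR. ISS replicate 5 stood low in its arm and LAR replicate 5 high in its arm, so the arms overlapped over most of their range. Ccnb1, the cyclin that starts mitosis, had 2.83, 1.4, 1.01, 1.57 and 0.322 CPM in ISS and 0.147, 0.553, 0.24, 0.161 and 0.922 CPM in LAR (-1.65 ± 0.65). Ttk, a kinase of the spindle checkpoint, had 15.8, 14, 17.3, 24.7 and 12.4 CPM in ISS and 2.11, 9.59, 5.75, 6.29 and 16.1 CPM in LAR (-1.08 ± 0.45). Nusap1 and Ccnb2 had -1.22 and -1.11. Genes of DNA replication did not share this, with 11 of 26 higher and a median of -0.03. On the ground the mitosis median was -1.94, with all 24 genes lower in LAR and 10 at an unadjusted p under 0.05. Without ground LAR replicate 3 it was -1.65, again with all 24 lower and 1 at that p.

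Growing follicles make an inner root sheath, and its genes summed to 48050, 52380, 28480, 33670 and 14250 CPM in ISS and 1415, 90820, 20320, 23840 and 38880 CPM in LAR. Both the lowest and the highest of the 10 sums stood in LAR, in replicates 1 and 2, and the median fold change of the 12 genes was 0.06. On the ground the median was -4.18, with sums of 10770, 7292 and 171400 CPM in ISS and 30720, 2523 and 1204 CPM in LAR. Of 14 hair shaft keratins 13 had a lower fitted level in LAR (median -0.67, none at an unadjusted p under 0.05), and the median ran from -1.40 without LAR replicate 2 to -0.37 without LAR replicate 1. The ground median of these keratins was -1.75, or -1.18 without ground LAR replicate 3. Krt39 had the smallest p, with 233, 54.7, 43.5, 65 and 109 CPM in ISS and 10.5, 78.3, 32.4, 73.5 and 30.1 CPM in LAR, and Krt81, Krt34 and Krt36 had fold changes of -0.83, -0.72 and -0.62. Hair follicle stem cell markers went the other way in flight, with 13 of 16 higher in LAR and a median of 0.46, or 0.59 without LAR replicate 1 and 0.26 without LAR replicate 4. On the ground 2 of 16 were higher in LAR, with a median of -0.84, or -0.96 without ground LAR replicate 3. Lrig1, a marker of the upper follicle, had 66, 52.1, 54, 47.3 and 85.3 CPM in ISS and 64.6, 69.3, 85.9, 155 and 133 CPM in LAR. Its fold change was 0.74 ± 0.28 in flight and -0.59 on the ground. Plet1, also of the upper follicle, had 19.4, 7.46, 4.7, 4.64 and 10.3 CPM in ISS and 14.5, 19.1, 14.1, 16.4 and 18.1 CPM in LAR, with 0.86 in flight and -1.20 on the ground (interaction 2.07, unadjusted p = 0.00479, adjusted p = 0.999). Cd34 and Postn had 0.81 and 1.199, and 0.49 and 0.73 without LAR replicate 4.

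The epidermal barrier genes had a lower fitted level in LAR in 16 of 24 cases (median -0.56, 3 lower at an unadjusted p under 0.05). Tgm1, which cross-links the cornified envelope, had 140.4, 123, 114, 85 and 179 CPM in ISS and 30.2, 108, 60.9, 80.3 and 70.4 CPM in LAR (-0.87 ± 0.31). The late envelope genes Lce1c and Lce1l had -1.31 and -1.24, and Klk5, a protease of shedding, had -0.82. Lce1c and Lce1l belong to a family of close copies, and reads that map to several copies were left out of the counts. The list median was -0.14 without ISS replicate 1 and 0.28 on the ground, or 0.67 without ground LAR replicate 3.

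Stress-linked genes were split. Of 28 immediate early genes, which answer within minutes to handling, injury or growth signals, 24 had a lower fitted level in LAR. At an unadjusted p under 0.05 there were 6 lower and none higher. The list median was -0.38, and it ran from -0.72 without LAR replicate 4 to -0.27 without ISS replicate 5. Nr4a1 had 7.28, 7.58, 20.2, 10.1 and 79 CPM in ISS and 4.02, 3.96, 6.31, 7.41 and 3.72 CPM in LAR, and ISS replicate 5 alone held the level of 79.0. Its fold change was -2.30 ± 0.67, and -1.18 without that library. Atf3 had 6.47, 2.17, 10.6, 7.26 and 59.95 CPM in ISS and 2.35, 2.95, 3.12, 7.9 and 1.42 CPM in LAR, again highest in ISS replicate 5 (-2.30 ± 0.84, and -0.93 without it). Dusp6, a phosphatase induced by ERK, had 40.9, 55.6, 54.7, 60.5 and 25.1 CPM in ISS and 25.7, 24.6, 19.8, 15.2 and 44.2 CPM in LAR, with -0.87 ± 0.32 in flight and -1.53 ± 0.39 on the ground. Nr4a3 had -1.20. Immediate early genes had a lower fitted level in ground LAR too (26 of 28, median -0.56).

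Targets of the glucocorticoid receptor, which carries the adrenal stress signal, gave 13 of 24 higher and a median of 0.25 and of -0.25 without LAR replicate 1. Glul, glutamine synthetase, had 23.5, 15.2, 27.1, 29.9 and 21.6 CPM in ISS and 429, 45.4, 119.9, 46.1 and 34.4 CPM in LAR, and every LAR library lay above every ISS library (2.53 ± 0.69, and 1.39 without LAR replicate 1). Lcn2, a siderophore-binding protein of inflamed tissue, had 0, 0.446, 0.476, 2.35 and 0.537 CPM in ISS and 83.2, 0.461, 25.7, 2.5 and 4.84 CPM in LAR, highest in LAR replicates 1 and 3 (4.74, and 3.28 without LAR replicate 1). Tgm2 and Errfi1 had 2.09 and -0.97, with 0.83 for Tgm2 without LAR replicate 1 and -0.54 for Errfi1 without ISS replicate 4. On the ground 20 of 24 of these genes had a higher fitted level in LAR, with a median of 1.13, or 0.45 without ground LAR replicate 3. The receptor's co-chaperone Fkbp5, chosen after its values were seen, had fold changes of -0.0058 in flight and 2.31 on the ground (interaction -2.31, unadjusted p = 0.00258, adjusted p = 0.999 by the quasi-likelihood F test of edgeR).

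Matrix genes had a higher fitted level in LAR in 20 of 23 cases beyond the collagens, with a median of 0.50 and of 0.23 without LAR replicate 1. For 21 collagens the median of 0.51 was -0.07 without that library. Lox, lysyl oxidase, cross-links collagen and elastin. It had 0, 0.255, 1.01, 0.654 and 0.645 CPM in ISS and 11, 1.47, 2.32, 1.69 and 3.49 CPM in LAR, and every LAR library lay above every ISS library at these low levels (2.79 ± 0.72 in flight, 1.96 without LAR replicate 1, and -0.08 ± 0.99 on the ground). Serpinh1 and Sparc had 0.98 and 1.16, and 0.45 and 0.40 without LAR replicate 1. Of 17 matrix proteases and inhibitors 13 had a higher fitted level, 6 at an unadjusted p under 0.05 against 1 lower. Over all genes the shares at that p were 3.57% higher and 1.45% lower. The list median of 0.40 was 0.26 without LAR replicate 1, when 3 were higher and 1 lower at that p. On the ground 7 of 17 were higher in LAR, with a median of -0.16, or -0.44 without ground LAR replicate 3. Timp3, an inhibitor bound to the matrix, had 38, 21.4, 19.6, 16.3 and 9.03 CPM in ISS and 46.9, 42.3, 24.4, 34.2 and 118 CPM in LAR (1.37 ± 0.47 in flight, 0.84 without LAR replicate 5, and -1.41 on the ground). Timp4 and Mmp11 had 3.57 and 1.88, and 2.0 and 0.92 without LAR replicate 1.

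**Figure D5:**
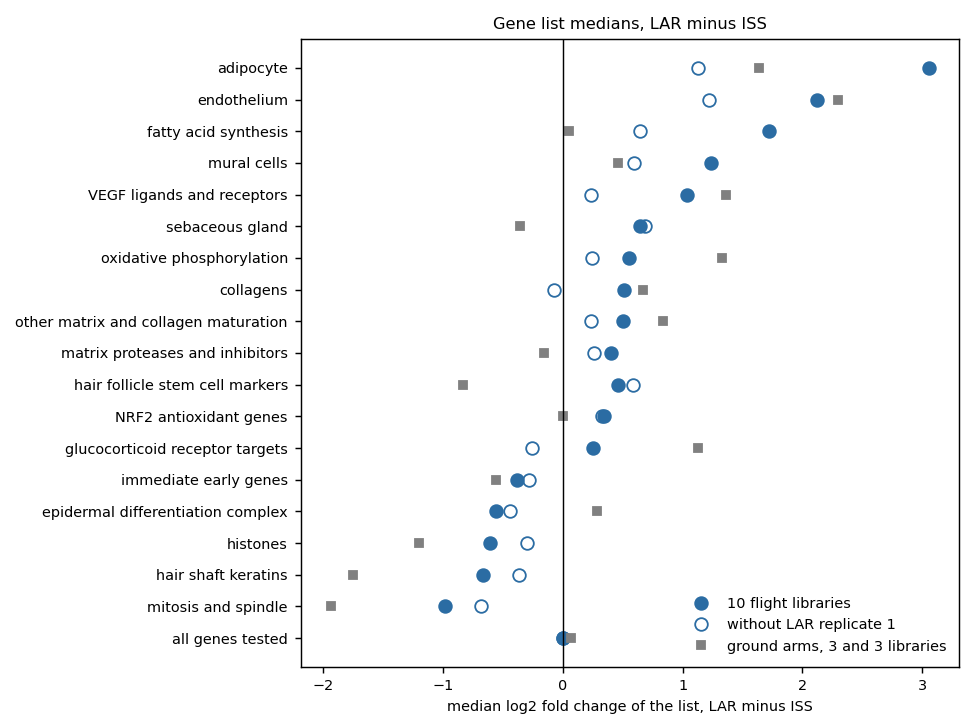
Median log2 fold change of LAR minus ISS (x axis) for 18 gene lists and for all genes tested (y axis), with all 10 flight libraries (filled circles), without LAR replicate 1 (open circles) and between the ground arms (grey squares). The adipocyte median moves from 3.06 to 1.13 without LAR replicate 1, the collagen and glucocorticoid medians change sign, and the mitosis median stays below 0 in all 3.

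Genes that write and erase DNA methylation, the mark that divided the cohorts of the study, had overlapping levels in the arms. Dnmt1, which copies methylation at replication, had 229, 299, 253, 211 and 197 CPM in ISS and 117, 246, 255, 171 and 289 CPM in LAR (-0.14 ± 0.25). Tet2, which oxidises 5mC, had 163, 394, 319, 308 and 161 CPM in ISS and 170.5, 229, 179, 161 and 362 CPM in LAR (-0.29 ± 0.32). Fold changes were -0.21 ± 0.30 for Dnmt3a, -0.18 ± 0.26 for Dnmt3b, 0.06 ± 0.36 for Tet1 and -0.20 ± 0.27 for Tet3, and p was at least 0.393 for all 6 by the quasi-likelihood F test of edgeR.

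Markers of other tissues varied by library more than by arm. Alb, the albumin of hepatocytes, had 11.3, 0.319, 13.4, 1054 and 61.7 CPM in ISS and 19.5, 3.32, 1.12, 0.806 and 0.658 CPM in LAR. Its fold change was -5.48, and ISS replicate 4 carried much of it. The value was -2.09 without that library, -7.32 without LAR replicate 1 and -3.92 without both. Apoa1 was at 514.5 CPM in ISS replicate 4 and at 17.9 CPM or less elsewhere. Vil1, a marker of intestine, was at 113 CPM in ISS replicate 4 and at 1.07 CPM or less elsewhere. The intestine list summed to 231 CPM in that library and to 1.98 to 6.66 CPM in the others. Of the liver list Hpx, Hp and Trf had fold changes of -3.21, 1.61 and -0.58, and of -0.50, 3.10 and 2.26 without ISS replicate 4. Without LAR replicate 1 they had -3.09, 0.75 and -2.31. Without both libraries Hp and Trf had 2.24 and 0.53. Of 15 fast muscle genes 2 had a higher fitted level in LAR (median -0.49), and none was at an unadjusted p under 0.05. Acta1, the actin of skeletal muscle, ran from 2.83 to 536.9 CPM in ISS and from 0.553 to 521.5 CPM in LAR, highest in ISS replicate 3 and LAR replicate 4, and Ckm was highest in the same libraries. Myh2, Myh4, Pvalb and Myh1 had fold changes of 1.72, -1.40, -1.17 and 1.35 with SE of 1.39 to 1.78. Rn45s, the ribosomal RNA precursor, held 12.9 to 51.9% of all counts per library, and its fold change was -0.61 ± 0.57.

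Whether the arm difference itself differed between flown and ground mice was tested by the interaction by the quasi-likelihood F test of edgeR, and no gene passed an adjusted p of 0.05 (0% called of 14381). At an unadjusted p under 0.05 there were 690 genes (4.8%), 225 higher (1.56%) and 465 lower (3.23%), and the interaction was above 0 in 45.8% and below 0 in 54.2% of all genes. The genes of smallest p with a more positive arm difference in flight were Plbd1, Fam101b, Gprin3 and Trabd2b. Plbd1, a phospholipase-like lysosomal protein, had 50.2, 43, 37.6, 36.8 and 23.6 CPM in ISS and 35, 50.9, 46.6, 55.6 and 66.6 CPM in LAR in flight. On the ground it had 64.8, 58.6 and 65.1 CPM in ISS and 25.9, 32.5 and 25.8 CPM in LAR, so that the arms were apart there and overlapped in flight. The interaction was 1.58 for Plbd1, 2.43 for Gprin3 and 2.17 for Trabd2b, which inhibits Wnt ligands. Those with a more negative difference were 1700048O20Rik (-3.62), Acsl6 (-3.14), Eya4 (-8.21) and Mss51 (-6.73). Eya4 had 0.146, 0 and 0 CPM in ground ISS and 0, 3.69 and 20.2 CPM in ground LAR. On the ground 1700048O20Rik was at 0 to 1.46 CPM, and Acsl6 was highest in ground LAR replicate 3 (15.5 CPM). Ground fold changes of 1700048O20Rik, Acsl6 and Eya4 were 3.12, 2.80 and 6.79, and 2.90, 2.17 and 4.75 without that library. Mss51 was at 338 CPM in ground LAR replicate 3 and at 2.83 CPM or less in the other ground libraries, and its interaction was -0.48 without that library.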

How the data were processed

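Hind limb skin of 16 mice was sequenced as exon-captured total RNA. The authors aligned reads with STAR to mm10, left out low-quality and multi-mapped reads, and deposited featureCounts gene counts, which were used here as whole-number counts. The strand setting of the counting is not given in the sources used here. The sample sheet deposited with the study gave the RNA integrity number (a score) and the shares of reads and of fragments as percent, and it gave the arm of each library, which GEO's own labels do not hold. Deposited log2 FPKM values and the authors' comparison columns (fold changes and p-values) were not used, and 0 columns were left unmapped. Within an arm replicates are numbered by library name, and the numbers pair no mice.

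Genes were filtered by arm with filterByExpr (13484 of 14858 kept in flight) and scaled by TMM. The arms were compared with the quasi-likelihood F test of edgeR 4.0.16 (robust, R 4.3.3), with p-values adjusted by Benjamini-Hochberg over all genes at a threshold of 0.05. Ground and interaction contrasts came from a fit of 16 libraries in 4 groups (14381 genes). Levels are CPM of TMM-scaled counts, with a prior count of 2 for log2 values. The likelihood ratio test, limma-voom (limma 3.58.1), DESeq2 1.42.0, other scalings and filters, the 5mC cohort as a covariate, each cohort alone and leaving out each library were alternatives. Leaving out the fat-rich and liver-rich libraries, and the shallow one with them, was chosen after seeing the data. The code was tested on simulated data. Members and gene lists were chosen with earlier results of these data known. Genes were named by rule: the 5 of smallest p in each direction where none passed, all clock genes, the 4 of smallest p of every other list described, defining markers of other tissues, Rn45s, 6 genes of DNA methylation, and the 4 of smallest interaction p in each direction. A few genes that the rule names are not reported here. Every mouse gave 1 library, so p-values measure the spread between mice of an arm, handling included.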

Additional observations from a re-analysis of the deposited data

Results flagged for a closer look

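Within each arm, 258 groups of 5 values were examined for a single library far from the other 4 (Dixon's ratio above 0.71). Chance flags about 1 in 20 such groups, or 13 here, and 11 were found, so that their number is no result. Of these 5 were in LAR replicate 1, the fat-rich library. Its summed CPM stood far above the other LAR libraries for oxidative phosphorylation (3747) and for NRF2 antioxidant genes (5687). The same library was highest of its arm for Cox4i1 (290.0 CPM), a subunit of complex IV, and Taldo1 (163.6 CPM), transaldolase, and lowest for Tet3 (246.2 CPM). ISS replicate 1, the shallow library, stood apart by 57.29% of reads on ribosomal RNA and 9.85% between genes. ISS replicate 5 had the highest Cry2 (104.7 CPM) and the lowest Ccnb2 (5.05 CPM) of its arm. ISS replicate 2 had the lowest Cd36 of its arm (1.211 CPM), and LAR replicate 4 the highest Errfi1 (44 CPM).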

How the results depend on the processing

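No gene passed an adjusted p of 0.05 between the flight arms under any alternative except the likelihood ratio test (1 gene) and DESeq2 (42 genes); between the ground arms the likelihood ratio test called 15. Genes at an unadjusted p under 0.05 ran from 360 (without LAR replicate 1) to 1012 (without LAR replicate 2) when 1 library was left out, and were 294 without the fat-rich and liver-rich libraries and 577 without the shallow one as well. Limma-voom gave 2617, the cohort covariate 444, the stricter filter 445 and low 5mC mice alone 257. No paired analysis was possible because replicate numbers follow library order and mark no shared animal, batch or day. Of 2406 values of named genes under alternatives 50 had the other sign, in 22 genes. Under limma-voom these were Arntl 0.21, Npas2 0.22, Myh2 -5.47, Myh1 -6.31, Trf 0.76, Tet1 -0.59, Tet3 0.073 and Rn45s 0.0038. Without the fat-rich and liver-rich libraries they were Clock -0.060, Rora -0.0033, Trf 0.53 and Tet1 -0.072, and without the shallow one as well Npas2 0.062, Trf 0.49 and Tet1 -0.21. In low 5mC mice they were Rora -0.039, Arntl2 -0.45, Thrsp -0.95, Gsta4 -0.23, Krt36 0.37, Myh4 0.68, Pvalb 0.47, Dnmt1 0.15 and Tet2 0.14. In high 5mC mice they were Per1 0.073, Myh2 -1.11, Myh1 -2.03, Trf 3.80, Dnmt3a 0.18, Dnmt3b 0.13 and Tet1 -0.18. With the cohort as covariate they were Myh1 -0.10 and Trf 1.47. Leaving out 1 library gave ranges of -0.025 to 0.21 for Clock, -0.14 to 0.27 for Rora, -0.037 to 1.02 for Nr1d1, -2.65 to 0.58 for Myh4, -1.79 to 0.23 for Pvalb, -1.06 to 3.30 for Myh1, -2.31 to 2.26 for Trf, -0.27 to 0.016 for Dnmt1, -0.35 to 0.10 for Dnmt3a and -0.14 to 0.21 for Tet1. The adipocyte median was 1.01 without the fat-rich and liver-rich libraries and 0.861 without the shallow one as well. The cause of these shifts was not tested.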

Other observations

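Further genes had arms that did not overlap. Those named here were chosen after their values were seen, they form no list, and none passed an adjusted p of 0.05 by the quasi-likelihood F test of edgeR (0.949 for each). Nkd1, an inhibitor that Wnt signals induce and a member of the Wnt pathway list, had 78.9, 67.3, 39.5, 31.6 and 44.1 CPM in ISS and 15.3, 28.3, 12.1, 30.0 and 20.4 CPM in LAR. Its log2 fold change was -1.30, and DESeq2 called it with an adjusted p of 0.0468. Of the 27 Wnt pathway genes tested, 8 had a higher fitted level in LAR, with a median of -0.20, or 0.012 without LAR replicate 1. At an unadjusted p under 0.05 by that F test 1 was lower and 0 higher, or 3.7% against 5.03% of all genes. The ground median of the list was -0.65, or -1.06 without ground LAR replicate 3. Outside the lists, Tcf7, a transcription factor of the Wnt pathway, had a fold change of -1.38 and Gadd45g of -1.31.

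Psap, which encodes the activators of sphingolipid breakdown in lysosomes, had 228, 224, 200.4, 179.9 and 194 CPM in ISS and 652, 287, 336, 287 and 290.0 CPM in LAR, with a log2 fold change of 0.85. LAR replicate 1 was the highest library. Vdac1, a channel of the outer mitochondrial membrane, had 28.2 to 41.1 CPM in ISS and 41.9 to 57.8 CPM in LAR, with a fold change of 0.62 and its highest level in LAR replicate 4.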
